A study of Mus musculus with 20 samples.

Results

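The enzymes of microsomal fatty acid ω-oxidation, the acyl-CoA thioesterases of the same lipid program and a pair of other well known targets of the nuclear receptor PPARα were followed in mouse liver: Cyp4a10, Cyp4a14, Cyp4a31 and Cyp4a32, Acot1, Acot2, Acot3 and Acot4, Ehhadh and Vnn1. These 10 genes were taken by symbol from the 48440 genes of the count table, each symbol belonged to 1 identifier, and all 10 passed the filter on low counts that left 16071 genes. They were chosen by earlier results of these livers, above all the fold changes of Cyp4a10 and Acot1 in CORT-treated mice. Their differences between CORT and vehicle under isotype, between αACBP and isotype under CORT, between αACBP + CORT and Isotype + Vehicle and in the interaction of both treatments are therefore given as descriptions, and where genes are counted past the limits of the fit across all genes in these comparisons, the count tests nothing about the group. αACBP against isotype without CORT, CORT against vehicle under αACBP and the variation among livers of the same group were tested.

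The livers came from 20 female wild-type C57BL/6 mice (C57BL/6J in the study's methods), in 4 groups of 5. Their age is given as 8 weeks, which is read here as that before the 5 weeks of treatment. Mice drank corticosterone (CORT, 100 μg per ml), the main glucocorticoid of rodents, or vehicle for 5 weeks, and this exposure serves as a model of Cushing's syndrome. They were also injected intraperitoneally with a monoclonal antibody that neutralizes acyl-CoA-binding protein (αACBP, 5 mg per kg of body weight) or with an IgG2a isotype control. The 2 groups given the control antibody are called Isotype + Vehicle and Isotype + CORT, those given the neutralizing antibody αACBP + Vehicle and αACBP + CORT, and no group was left without an injected antibody. The antibody binds the protein, so no transcript level checks its action, and every liver still carried the intact gene.

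PPARα is a ligand-activated transcription factor of hepatocytes that binds DNA with RXR and is switched on by fatty acids, during fasting and by fibrate drugs. Among its targets, CYP4A enzymes of the endoplasmic reticulum hydroxylate fatty acids at the terminal carbon, which starts their conversion to dicarboxylic acids. The ACOT1 to ACOT4 thioesterases cleave acyl-CoA into free acid and coenzyme A in cytosol, mitochondria or peroxisomes. EHHADH, the peroxisomal bifunctional enzyme, carries out the middle steps of the β-oxidation of long-chain and dicarboxylic acyl-CoA. VNN1 is a membrane-anchored pantetheinase that releases cysteamine and vitamin B5.

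In GENCODE M39, on the GRCm39 assembly, the CYP4A genes lie next to each other on chromosome 4: Cyp4a14 at chr4:115343397-115353344 on the minus strand, and on the plus strand Cyp4a10 at chr4:115375461-115390849, Cyp4a31 at chr4:115420818-115436212 and Cyp4a32 at chr4:115458134-115479704. The ACOT genes form a row on the plus strand of chromosome 12, with Acot2 at chr12:84034428-84040647, Acot1 at chr12:84056256-84065145, Acot4 at chr12:84085081-84095375 and Acot3 at chr12:84098918-84107176. Ehhadh lies at chr16:21580036-21606563 on the minus strand, and Vnn1 at chr10:23770586-23781241 on the plus strand. All values are deposited counts per whole gene, matched to these positions by identifier. The deposited identifiers carry older version numbers than those of GENCODE M39. The exons counted may therefore differ from those described here.

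Sequence is shown for both clusters because it decides how well the counts of neighbours can be told apart. Coding sequence of Cyp4a10 was 96.6% identical to that of Cyp4a31 over 1527 aligned bases, 97.9% to that of Cyp4a32 over 1209 and 75.4% to that of Cyp4a14 over 1521. The following stretches of 90 coding bases, 5′ to 3′, are those aligned without a gap where the family differed most, and capitals mark letters that differ from Cyp4a10. They cover coding bases 631 to 720 of Cyp4a10 and Cyp4a31, 625 to 714 of Cyp4a14 and 313 to 402 of the shorter annotated Cyp4a32.
Cyp4a10: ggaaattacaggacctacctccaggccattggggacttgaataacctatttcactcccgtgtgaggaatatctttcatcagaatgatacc
Cyp4a31: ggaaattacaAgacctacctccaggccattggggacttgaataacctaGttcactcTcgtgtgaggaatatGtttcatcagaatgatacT
Cyp4a32: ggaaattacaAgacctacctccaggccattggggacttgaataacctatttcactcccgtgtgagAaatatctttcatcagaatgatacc
Cyp4a14: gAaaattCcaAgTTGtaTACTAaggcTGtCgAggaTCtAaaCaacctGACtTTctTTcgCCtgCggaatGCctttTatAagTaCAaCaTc
In this stretch, picked for the differences summed over the family, Cyp4a31 differed from Cyp4a10 at 5 letters and Cyp4a32 at 2, against 38 for Cyp4a14. Other stretches may tell Cyp4a31 or Cyp4a32 better from Cyp4a10. Of the words of 100 bases in the exons of Cyp4a10, 13.6% also occurred in Cyp4a31 or Cyp4a32, and 30.4% of those of Cyp4a32 occurred in Cyp4a10, Cyp4a31 or Cyp4b1. The exons of Cyp4b1 on the opposite strand cover 30.2% of the exon bases of Cyp4a32, and the strand setting of the counting is not given in the sources used here. The split of reads among Cyp4a10, Cyp4a31 and Cyp4a32 is therefore less certain than the level of Cyp4a14.

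For the thioesterases the stretch shown covers coding bases 1096 to 1185 of Acot1, 1219 to 1308 of Acot2 and 1102 to 1191 of Acot3 and Acot4, with capitals where a letter differs from Acot1.
Acot1: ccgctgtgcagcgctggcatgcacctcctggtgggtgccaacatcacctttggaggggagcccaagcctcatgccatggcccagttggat
Acot2: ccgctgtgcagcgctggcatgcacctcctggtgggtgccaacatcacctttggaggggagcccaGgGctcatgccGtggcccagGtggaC
Acot3: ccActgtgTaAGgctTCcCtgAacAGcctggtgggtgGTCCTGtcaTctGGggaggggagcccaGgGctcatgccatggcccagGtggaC
Acot4: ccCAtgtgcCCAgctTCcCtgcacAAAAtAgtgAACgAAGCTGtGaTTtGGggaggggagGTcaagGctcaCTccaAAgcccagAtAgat
Acot2 differed from Acot1 at 5 letters here, Acot3 at 23 and Acot4 at 36, and over the aligned coding sequence Acot1 was 95.6%, 83.9% and 74.1% identical to them. Between 14.4% (Acot1) and 23.4% (Acot3) of the exon words of 100 bases of these genes occurred in another gene of the cluster. Acot3 and Acot4 also share exon positions with 4732463B04Rik on the opposite strand (7.83% and 15.1% of their exon bases), and with Gm49366 on the same strand (20.3% and 6.18%). Gm52676 on the opposite strand covers 8.37% of the exon bases of Cyp4a14. The symbols Gm49366 and Gm52676 were not in the count table, so their levels were not analysed here. Ehhadh and Vnn1 shared no such word and no exon position with another gene.

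Promoter sequence of RefSeq (GRCm38.p6) was at hand for 6 of the 10 genes, but not for Cyp4a10, Cyp4a14, Cyp4a31 or Vnn1. It was searched on both strands for AGGTCA, the element that nuclear receptors such as PPARα bind as a repeat, in the 250 bases before the start. The element was found in Acot4 only of these 6. With so few promoters and the shares given below, the search cannot tell whether the group are PPARα targets. Capitals mark the element, read as TGACCT on the gene's strand.
Acot4, chr12:84038129-84038378, plus strand: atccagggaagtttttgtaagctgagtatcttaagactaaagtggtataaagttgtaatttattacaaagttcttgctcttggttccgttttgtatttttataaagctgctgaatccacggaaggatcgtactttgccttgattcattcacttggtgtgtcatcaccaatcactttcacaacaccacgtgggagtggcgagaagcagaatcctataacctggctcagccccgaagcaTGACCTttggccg
Its first letter lies 13 bases before the start, and together with 2 letters beside it the element reads AAAGGTCA. AGGTCA occurred in 14.02% of 32851 promoters of the same length, AAAGGTCA in 1.34%. The direct repeat of AGGTCA with 1 letter between its copies (DR1), the form that PPARα binds with RXR, was found in 0 of the 6 genes, also with any letter allowed at the fourth base of each copy, and in 0.0335% and 0.338% of all promoters in these forms. Letters outside these windows were not searched.

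Each liver had between 14934926 and 20299999 counts on genes in total (median 16996358), and levels are given as CPM, counts scaled to the normalized library size. At the lowest total 3 counts amount to 0.201 CPM, and every gene of the group was above this level in every liver. Markers of hepatocytes summed to between 44182 and 151484 CPM, and kidney tubule markers, of an organ that also uses CYP4A and ACOT genes, to at most 0.480 CPM. αACBP + Vehicle liver 5 stood apart: it had the lowest hepatocyte sum, the largest TMM factor (1.29) and the lowest median correlation with its own group (0.873). Isotype + CORT liver 5 had a median correlation of 0.898 with its group, the lowest TMM factor (0.880) and the highest share of pairs marked as ambiguous between genes (2.18%) of the 20 livers, and it was the highest of its group in 8 of the 10 genes, against 25.8% of all genes tested. αACBP + CORT liver 1 was the highest of its group in 9 of the 10 genes, against 18.9% of all genes tested. Many results that rest on these livers are given with and without them, but not all.

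Under isotype, all 10 genes had higher fitted levels with CORT than with vehicle, by a median log2 fold change of 1.98 against 0.00 over all genes tested. Cyp4a32 was near 0 (0.03 ± 0.55, SE), and it lay between -0.33 and 0.31 with single livers left out. Cyp4a10, Cyp4a14, Cyp4a31 and Vnn1 were past both limits used throughout, which are an adjusted p of at most 0.05 and a log2 fold change of 1 or more in either direction, as were 0.510% of all genes tested upwards. In 6 of the 10 no liver of one group reached the other, as in 2.02% of all genes with CORT higher. Since this comparison helped to choose the genes, these counts carry no weight of their own. Without Isotype + CORT liver 5 the median of the 10 was 1.39. With the antibody the levels under CORT were lower for 9 of the 10 genes, by a median log2 fold change of -0.95 against 0.01 over all genes, and Cyp4a10 alone was past both limits, as were 0.0933% of all genes downwards. It was also the only one of the 10 whose groups did not overlap, against 1.31% of all genes in this direction. Without Isotype + CORT liver 5 the median of the 10 was -0.49, against 0.03 over all genes. None of the 10 was then past both limits, as 0.558% of all genes were in either direction.

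**Figure D1:**
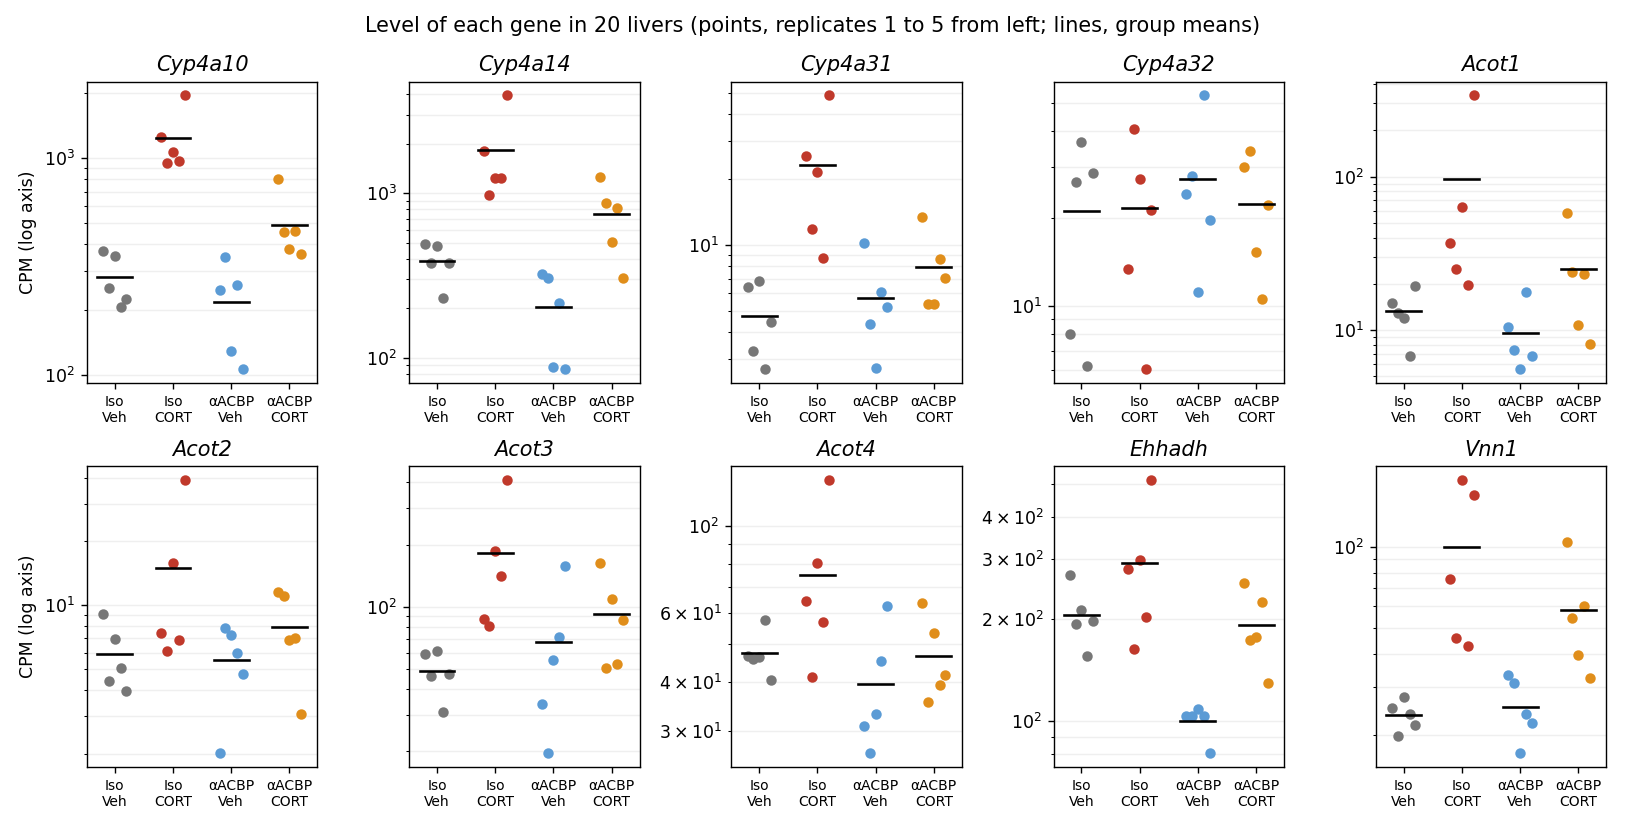
Level of each of the 10 genes in CPM (log axis) in the 4 groups; points are livers, in the order of their replicate numbers 1 to 5 from left to right, and black lines are group means (n = 5). Cyp4a10 in the 5 Isotype + CORT livers sits between 948 and 1954 CPM, above all other livers, and Ehhadh in the 5 αACBP + Vehicle livers sits between 80.5 and 108 CPM, below all others.

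Cyp4a10, which encodes an ω-hydroxylase and had the highest level of the CYP4A genes together with Cyp4a14, was at 373, 253, 355, 205 and 223 CPM in Isotype + Vehicle livers 1 to 5. With CORT these values were 1254, 948, 1075, 972 and 1954 CPM, a log2 fold change of 2.14 ± 0.30 (SE, n = 5 against 5), and no liver of one group reached the other. With CORT and αACBP they were 803, 458, 381, 463 and 363 CPM. All 5 of these livers lay below the lowest Isotype + CORT liver, and liver 1 was the highest of them. The log2 fold change of αACBP against isotype under CORT was -1.33 ± 0.29 (SE). Both limits were no longer passed without Isotype + CORT liver 1 or 5 or without αACBP + CORT liver 2, 3, 4 or 5, each left out alone. Over all 10 livers left out in turn the log2 fold change lay between -1.57 and -1.11.

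Cyp4a14, which encodes a close functional relative, was at 488, 376, 479, 229.6 and 376 CPM in Isotype + Vehicle and at 1799.7, 971, 1235, 1243 and 3939 CPM in Isotype + CORT. The log2 fold change was 2.24 ± 0.47 (SE), and it was 1.75 ± 0.43 without Isotype + CORT liver 5, which held more than any other liver of the study. In αACBP + CORT the values were 1259.9, 871, 506, 816 and 303 CPM. These livers overlapped the range of Isotype + CORT and, by liver 5, that of Isotype + Vehicle. The antibody's log2 fold change under CORT was -1.29 ± 0.46, and -0.81 ± 0.42 without Isotype + CORT liver 5.

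Cyp4a31 was a low gene with a like pattern. It was at 6.38, 3.24, 6.85, 2.69 and 4.44 CPM in Isotype + Vehicle and at 25.6, 11.8, 21.5, 8.67 and 48.7 CPM in Isotype + CORT (log2 fold change 2.30 ± 0.42). In αACBP + CORT it was at 13.4, 5.34, 5.34, 8.58 and 7.02 CPM, and 4 of these 5 livers lay below all Isotype + CORT livers (log2 fold change -1.55 ± 0.40). With single livers left out, the value with CORT under isotype lay between 1.83 and 2.49. That with αACBP under CORT lay between -1.82 and -1.09. Cyp4a32 behaved differently from its neighbours, although its coding sequence is the closest to Cyp4a10. Its values spread from 6.20 to 36.5 CPM in Isotype + Vehicle, from 6.06 to 40.4 in Isotype + CORT, from 11.2 to 52.9 in αACBP + Vehicle and from 10.5 to 34.1 in αACBP + CORT. The groups overlapped over nearly their whole range, and the log2 fold change with CORT under isotype was 0.03 ± 0.55. Cyp4b1, whose exons cover part of Cyp4a32, was at a median of 17.3 CPM, and its deviations from the group means did not run with those of Cyp4a32 (Pearson r = -0.08 and Spearman's rho = -0.02 over 20 livers). With the counts of Cyp4a10, Cyp4a31 and Cyp4a32 added up, the log2 fold change with CORT under isotype was 2.06 ± 0.29. With αACBP under CORT it was -1.29 ± 0.28. A pair counted for more than 1 of these genes entered the sum more than once.

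Acot1, the cytosolic thioesterase, had the largest fitted difference of the group with CORT under isotype, and it rested largely on 1 liver. Isotype + Vehicle livers 1 to 5 were at 15.1, 12.8, 12.0, 6.76 and 19.4 CPM, and Isotype + CORT livers at 36.8, 24.8, 63.6, 19.6 and 338 CPM. The groups did not overlap, but liver 5 was far above the others. The log2 fold change of 2.87 ± 0.77 (SE) became 1.45 ± 0.51 without that liver. In αACBP + CORT the values were 58.2, 24.0, 10.8, 23.1 and 8.05 CPM, which overlapped both isotype groups. The antibody's log2 fold change under CORT was -1.96 ± 0.74 with Isotype + CORT liver 5 and -0.55 ± 0.51 without it.

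The mitochondrial Acot2 was low in all groups, between 3.96 and 9.09 CPM in Isotype + Vehicle and between 6.11 and 39.1 CPM in Isotype + CORT, where the highest value was again that of liver 5. Its log2 fold change of 1.35 ± 0.46 with CORT under isotype became 0.62 ± 0.40 without that liver. Acot3, a peroxisomal thioesterase, was at 31.1 to 61.5 CPM in Isotype + Vehicle and at 80.7 to 412 CPM in Isotype + CORT, and these groups did not overlap (log2 fold change 1.88 ± 0.55, and 1.33 ± 0.50 without Isotype + CORT liver 5). In αACBP + CORT it was at 50.9 to 164 CPM, and in αACBP + Vehicle at 19.5 to 158 CPM, the highest being liver 5. Acot4, also peroxisomal, moved least of the thioesterases, with 40.4 to 57.5 CPM in Isotype + Vehicle and 41.1 to 131 CPM in Isotype + CORT (0.66 ± 0.25, and 0.36 ± 0.22 without liver 5). 4732463B04Rik, which overlaps Acot3 and Acot4 on the other strand, deviated from its group means together with Acot3 (r = 0.937, rho = 0.946) and Acot4 (r = 0.843, rho = 0.811) over 20 livers, and the part of shared reads in these values was not tested. The added counts of Acot1 to Acot4, with the same limit, gave 1.67 ± 0.45 with CORT under isotype and -1.10 ± 0.45 with αACBP under CORT. The summed level was 921 CPM in Isotype + CORT liver 5 and 153 to 346 CPM in the other livers of its group. The sum was not fitted without liver 5.

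Vnn1 was at 25.1, 19.7, 27.6, 23.8 and 21.7 CPM in Isotype + Vehicle, the narrowest group of the gene, and at 75.7, 45.7, 177, 42.7 and 156 CPM in Isotype + CORT. No liver of one group reached the other, and here livers 3 and 5 were both high, so that the log2 fold change of 2.08 ± 0.38 (SE) remained at 1.86 ± 0.38 without liver 5. In αACBP + CORT it was at 104, 54.1, 39.6, 60.3 and 32.4 CPM, all above the highest Isotype + Vehicle liver. It was the only one of the 10 genes whose αACBP + CORT and Isotype + Vehicle groups did not overlap (1.30 ± 0.37), where 1.85% of all genes did so in this direction. None of the 10 genes was past both limits in that comparison, as 0.0684% of all genes were.

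Ehhadh was at 269.7, 194, 213, 156 and 197 CPM in Isotype + Vehicle and at 281, 164, 298, 203 and 515 CPM in Isotype + CORT, and these groups overlapped, with CORT liver 5 far above the rest. The log2 fold change with CORT under isotype was 0.50 ± 0.23, and 0.20 ± 0.20 without that liver. αACBP + CORT livers, at 255, 173, 177, 225 and 130.0 CPM, overlapped Isotype + Vehicle (log2 fold change -0.10 ± 0.23). The αACBP + Vehicle livers were set apart from all of these, at 104, 104, 108, 103 and 80.5 CPM.

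Without CORT, Ehhadh was lower with αACBP than with isotype, at a log2 fold change of -1.04 ± 0.23 (SE, n = 5 against 5), from 206 ± 41.4 to 99.97 ± 11.1 CPM (SD), with an adjusted p of 0.0114 in edgeR's quasi-likelihood test. All 5 αACBP livers lay below all 5 isotype livers, as was so in this direction for 3.63% of all genes. It was the only one of the 10 genes past both limits in this comparison, in which 0.616% of all genes were past them in this direction. The adjusted p covers all 16071 genes and makes no allowance for the choice of the 10, and the Isotype + Vehicle livers also entered the comparison with CORT that helped to choose them. Without αACBP + Vehicle liver 5 the log2 fold change was -0.98 ± 0.24 (adjusted p = 0.0351), and without Isotype + Vehicle liver 1 it was -0.93 ± 0.24 (adjusted p = 0.0476), so that in both cases the limit on the fold change, not that on p, was missed. Of 10 hepatocyte markers 7 had negative log2 fold changes in this comparison (median -0.36, none past both limits), and their summed level was 76041 to 131910 CPM in Isotype + Vehicle (median 119782) and 44182 to 101881 in αACBP + Vehicle (median 95259). Their part in the result was not tested.

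The other 9 genes did not pass in this comparison, and their log2 fold changes lay between -0.94 and 0.47. Cyp4a14 came next to Ehhadh, with 324, 305, 87.7, 216 and 85.3 CPM in αACBP + Vehicle. Livers 1 and 2 lay within the range of Isotype + Vehicle and the other 3 below it (-0.94 ± 0.46, adjusted p = 0.256). Cyp4a10 was at 246, 350.0, 129, 259 and 106 CPM, with livers 3 and 5 again lowest (-0.37 ± 0.29, adjusted p = 0.528). Vnn1, at 17.02 to 33.2 CPM, gave 0.11 ± 0.36 (adjusted p = 0.917).

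Under αACBP, CORT gave positive log2 fold changes for 9 of the 10 genes, with a median of 0.73 against 0.01 over all genes, but none was past both limits in edgeR's quasi-likelihood test. The αACBP + CORT livers of this comparison also entered a comparison that helped to choose the genes. With CORT, 0.168% of all genes tested were past both limits upwards. At an unadjusted p of 0.05 or less with the same fold limit 3 of the 10 passed, as 2.46% of all genes did in either direction. DESeq2's Wald test called 3 of the 10, as it did 0.697% of all genes in either direction, and voom with quality weights 2, as it did 0.964%. Cyp4a10 had a log2 fold change of 1.18 ± 0.29 (adjusted p = 0.0710) and Ehhadh of 0.94 ± 0.23 (adjusted p = 0.0635), and in both genes all 5 αACBP + CORT livers lay above all 5 αACBP + Vehicle livers, as did 1.65% of all genes. Cyp4a14 gave 1.88 ± 0.47 (adjusted p = 0.0930) and Vnn1 1.19 ± 0.37 (adjusted p = 0.159), with groups that overlapped. Acot1 gave 1.38 ± 0.74 (adjusted p = 0.464), and the remaining genes lay between -0.28 and 0.51. Without αACBP + CORT liver 5, Cyp4a10 (1.27), Cyp4a14 (2.09) and Ehhadh (1.05) passed both limits, with adjusted p of 0.0310, 0.0251 and 0.0161. Without αACBP + Vehicle liver 2, Cyp4a10 alone passed, at 1.41 (adjusted p = 0.0286). The share of all genes that passed was not computed for these fits, so the calls have nothing beside them. Without αACBP + CORT liver 1, Ehhadh stood at 0.82 ± 0.24 (adjusted p = 0.235). Over all 10 livers left out in turn Cyp4a10 lay between 0.94 and 1.41, Cyp4a14 between 1.62 and 2.12 and Vnn1 between 0.88 and 1.35. Acot1 lay between 0.79 and 1.72.

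**Figure D2:**
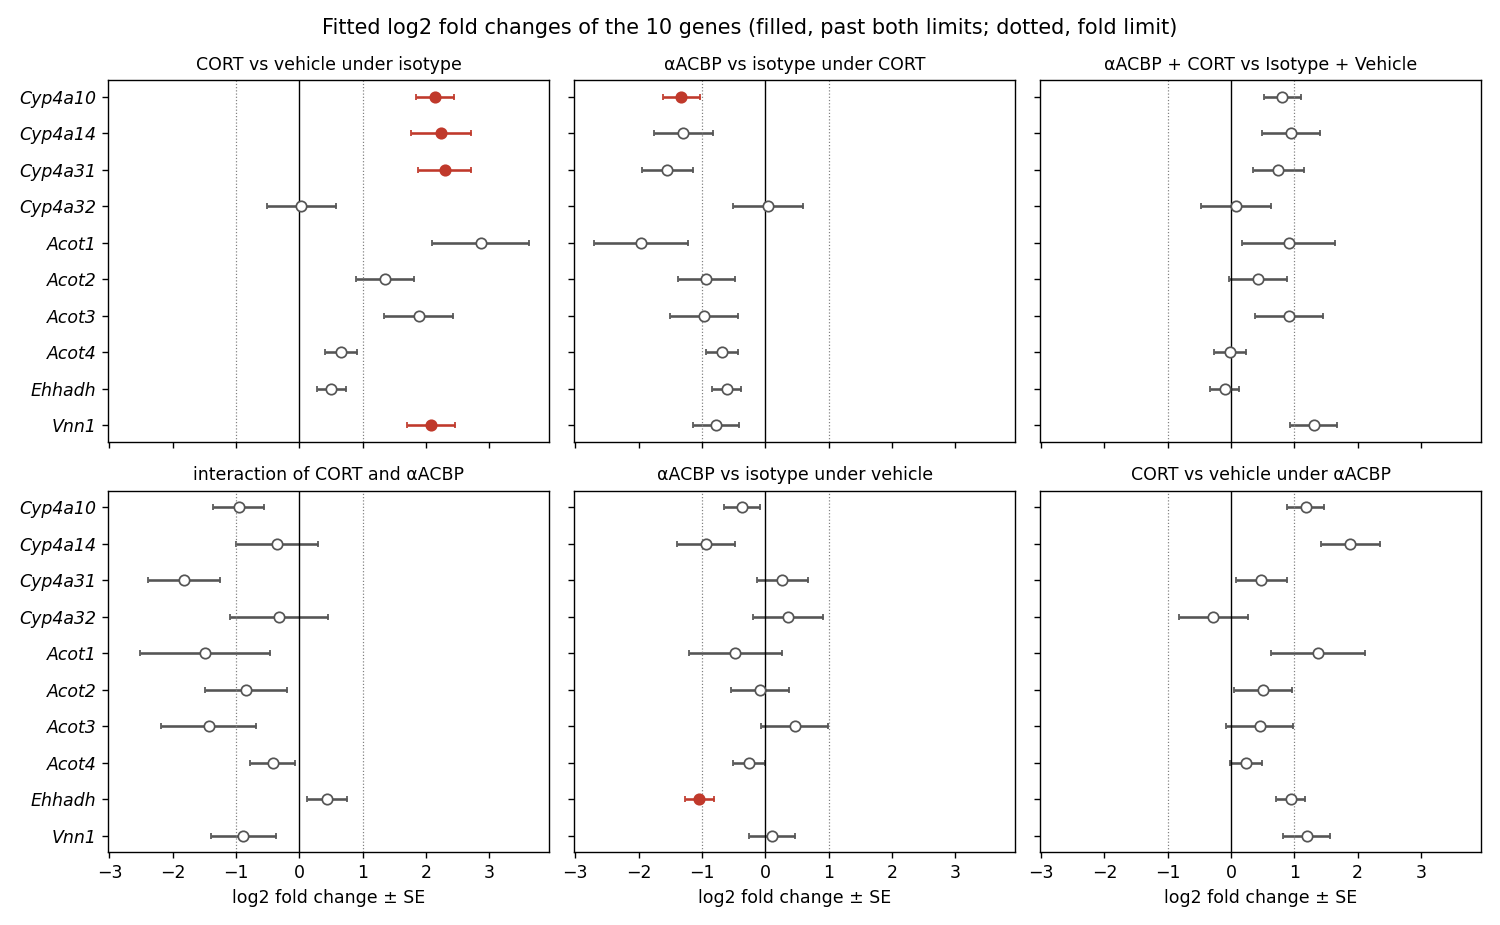
Fitted log2 fold change with its SE (horizontal axis) for each of the 10 genes (vertical axis) in each comparison, n = 5 livers per group; filled red points are past both limits and dotted lines mark the fold limit of 1. With CORT under isotype all 10 points lie above 0, with αACBP under CORT 9 lie below 0, and Ehhadh is the only filled point for αACBP under vehicle.

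The interaction, which is the antibody's difference under CORT minus that under vehicle, was negative for 9 of the 10 genes, by a median of -0.86 on the log2 scale against 0.03 over all genes. None was past both limits, as 0.143% of all genes were. Cyp4a31 had the most negative value (-1.82 ± 0.57), followed by Acot1 (-1.49 ± 1.03) and Acot3 (-1.43 ± 0.75). Ehhadh was the exception, at 0.44 ± 0.32, with an antibody difference of -1.04 under vehicle and of -0.61 ± 0.23 under CORT. Cyp4a10 stood at -0.96 ± 0.41 and Cyp4a14 at -0.35 ± 0.64. Without Isotype + CORT liver 5 the value of Acot1 was -0.08 ± 0.71 and that of Cyp4a14 turned to 0.13 ± 0.58. The median of the 10 genes was then -0.22, against 0.07 over all genes, and 8 of the 10 were negative. With single livers left out, Cyp4a31 lay between -2.09 and -1.36 and Acot3 between -1.74 and -0.82.

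Levels per kilobase of exon used the exon lengths of GENCODE M39, from which the annotation of the counting may differ. Cyp4a14 (146 ± 39.2 CPM per kb, SD) and Cyp4a10 (133 ± 36.5) were the highest of the group in Isotype + Vehicle. They did not differ beyond their spread. Ehhadh followed at 66.4 ± 13.3 CPM per kb, below all livers of Cyp4a10, and its highest liver (87.0) was just above the lowest of Cyp4a14 (86.2). Acot3 (12.3 ± 3.03), Cyp4a32 (9.75 ± 6.16), Vnn1 (6.82 ± 0.88) and Acot4 (6.40 ± 0.84) came next, each overlapping its neighbour in this order. Acot1 (3.36 ± 1.17), Acot2 (2.45 ± 0.88) and Cyp4a31 (1.86 ± 0.73) were lowest, with ranges that overlapped. In Isotype + CORT the order of the first 4 genes was the same, with Cyp4a14 at 690 ± 455, Cyp4a10 at 587 ± 197, Ehhadh at 94.2 ± 43.9 and Acot3 at 45.5 ± 34.1 CPM per kb, followed by Vnn1 at 28.8 ± 18.3 and Acot1 at 24.6 ± 34.7. In αACBP + Vehicle Cyp4a10 (103 ± 47.5 CPM per kb) came before Cyp4a14 (76.4 ± 42.9), whose livers overlapped.

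Summed over the group, the 10 genes took 723 to 1299.9 CPM in Isotype + Vehicle, 2334 to 7555 in Isotype + CORT, 457 to 883 in αACBP + Vehicle and 998 to 2763 in αACBP + CORT. Cyp4a10 and Cyp4a14 made up 60.0% to 67.0% of this sum in Isotype + Vehicle and 72.6% to 83.8% in Isotype + CORT. In αACBP + Vehicle their share ran from 34.7% in liver 5 to 74.2% in liver 2, the widest range of the 4 groups. The low share of liver 5 went with its high Acot3 (158 CPM) and its low Cyp4a14 (85.3 CPM).

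Whether livers of the same group that were high in one gene were also high in another was asked from the deviations of log2 CPM from the group means over 20 livers, from which the group differences are removed. Of 45 pairs of genes, 42 had a Pearson r above 0 (median 0.49, range -0.06 to 0.909). For 18 of them the Benjamini-Hochberg adjusted permutation p of r was 0.05 or less. These shares were not computed for pairs of other genes, so the counts cannot tell whether the group runs together more than other liver genes. Differences between whole livers also enter such deviations, and their part in these values was not tested. Cyp4a10 and Cyp4a14 ran together most closely (r = 0.909, rho = 0.935, permutation p = 1e-05 for both, the smallest that 100000 shuffles within groups can give, adjusted p = 0.00045), and r was 0.900 without the 2 livers farthest from the median of Cyp4a10. No exon word of 100 bases was common to both. Acot1 followed Ehhadh (r = 0.842, rho = 0.668, permutation p = 0.00028 and 0.00917, adjusted p = 0.00217 and 0.0243, r without the 2 farthest livers 0.691), and Ehhadh followed Vnn1 (r = 0.752, rho = 0.741, permutation p = 0.00409 and 0.00277, adjusted p = 0.0108 and 0.0099, r without the 2 farthest livers 0.654).

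Acot3 and Acot4 ran with each other (r = 0.856, rho = 0.833, permutation p = 0.00014 and 0.00022, adjusted p = 0.00158 and 0.00495, r without the 2 farthest livers 0.806), and both overlap 4732463B04Rik. Cyp4a10 with Acot3 gave r = -0.03 (rho = 0.02, permutation p = 0.924 and 0.954, adjusted p = 0.967 and 0.976) and with Acot4 r = 0.08 (rho = 0.05, permutation p = 0.769 and 0.854, adjusted p = 0.865 and 0.937). Without the 2 livers farthest from the median, these values of r were 0.055 and 0.13. Cyp4a14 gave r = -0.0063 with Acot3 (rho = 0.0045, permutation p = 0.983 and 0.989, adjusted p = 0.983 and 0.989) and r = 0.12 with Acot4 (rho = 0.020, permutation p = 0.669 and 0.944, adjusted p = 0.792 and 0.976), and r was -0.25 and -0.18 without its 2 farthest livers. Cyp4a32 had no adjusted p of 0.05 or less with any of the other 9 genes (r between -0.06 and 0.39).

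**Figure D3:**
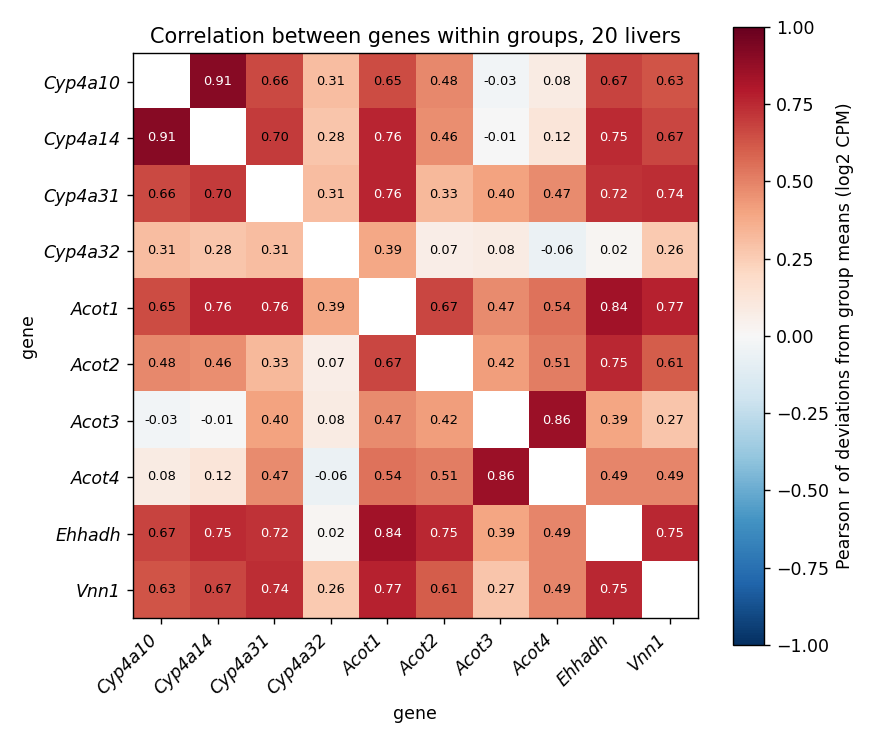
Pearson r between each pair of the 10 genes (both axes), computed from deviations of log2 CPM from the group means over 20 livers; red is positive and blue negative. Cyp4a10 and Cyp4a14 (r = 0.909) and Acot3 and Acot4 (r = 0.856) are the darkest pairs, and the row of Cyp4a32 is pale throughout.

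The 5 other genes whose deviations were most like the mean of those of the 10 genes were Hadha (r = 0.913, rho = 0.866), Crat (r = 0.882, rho = 0.818), Aldh3a2 (r = 0.881, rho = 0.764), Hadhb (r = 0.865, rho = 0.806) and Plin2 (r = 0.859, rho = 0.868) over 20 livers, given as a description of genes picked for this value. Hadha and Hadhb encode the mitochondrial trifunctional protein, Crat carnitine acetyltransferase, Aldh3a2 a fatty aldehyde dehydrogenase and Plin2 a lipid droplet coat protein. Without Isotype + CORT liver 5 and αACBP + CORT liver 1, the livers farthest from the median, r lay between 0.733 and 0.822 for these 5 genes. Crat alone of them was past both limits with CORT under isotype (58.2 ± 7.73 CPM in Isotype + Vehicle and 124 ± 62.1 in Isotype + CORT, log2 fold change 1.09 ± 0.28, adjusted p = 0.0308).

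Of 133 other genes in 7 lists around the same pathway, 117 passed the filter on low counts. With CORT under isotype 8 of them rose and 2 fell past both limits, as 1.94% of all genes did in either direction, with a median log2 fold change of 0.29. Of the other CYP4 genes 0 of 8 passed (median -0.09), and of the other thioesterases 1 of 8, Acot11, rose (1.24 ± 0.33, adjusted p = 0.0332). None of 9 genes for the aldehyde, alcohol and activation steps after ω-hydroxylation passed (median 0.31).

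In the peroxisomal list 2 of 20 rose, Crat and Pex11a (1.05 ± 0.23, adjusted p = 0.0102), the latter a peroxisome division factor, and the median was 0.33. Of 21 mitochondrial genes, 0 rose and 1 fell, Acss2 (-1.88 ± 0.31, adjusted p = 0.00155), an acetyl-CoA synthetase whose usual place is the cytosol and nucleus, and 19 had a positive log2 fold change (median 0.35). In the lipid handling list 5 of 31 rose and 0 fell, with a median of 0.46. The largest rises there were Fgf21 (3.77 ± 0.95, adjusted p = 0.0374), a secreted fasting hormone, from 1.45 ± 0.90 to 19.9 ± 23.5 CPM, Cd36 (1.68 ± 0.24, adjusted p = 0.000291), a fatty acid carrier, and G0s2 (1.55 ± 0.32, adjusted p = 0.0095), an inhibitor of the lipase ATGL.

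Among 20 regulators, 0 rose and 1 fell, Ppard, which encodes PPARδ (-2.28 ± 0.30, adjusted p = 0.000231). Ppara itself was at 18.2 ± 5.60 CPM in Isotype + Vehicle, 28.6 ± 5.91 in Isotype + CORT, 13.1 ± 5.48 in αACBP + Vehicle and 22.4 ± 4.67 in αACBP + CORT (SD, n = 5). Its log2 fold changes of 0.65 ± 0.25 with CORT under isotype (adjusted p = 0.168) and -0.35 ± 0.25 with αACBP under CORT (adjusted p = 0.651) did not pass.

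With αACBP under CORT 1 of the 117 genes rose, Ppard (1.84 ± 0.29, adjusted p = 0.00275), and 1 fell, Cd36 (-1.08 ± 0.23, adjusted p = 0.0173), with a median of -0.15, where 0.597% of all genes passed in either direction. The medians were negative for the peroxisomal (-0.26), mitochondrial (-0.25), downstream ω-oxidation (-0.28) and other thioesterase (-0.17) lists and positive for the other CYP4 genes (0.18), and no gene of these 5 lists passed. Without CORT, αACBP against isotype gave 1 rise and 4 falls among the 117 (median -0.16), where 1.30% of all genes passed. They are named here after their values were seen. Slc27a1, a fatty acid transport protein, rose (1.04 ± 0.24, adjusted p = 0.0145). Acsl5, an acyl-CoA synthetase (-1.03 ± 0.18, adjusted p = 0.00238), Fabp2, a fatty acid-binding protein (-1.12 ± 0.29, adjusted p = 0.0278), Nr0b2, the corepressor SHP (-1.16 ± 0.27, adjusted p = 0.0159), and Ppard (-1.73 ± 0.29, adjusted p = 0.00238) fell. The medians of the peroxisomal and mitochondrial lists were both -0.29 in this comparison, with no gene past both limits in either. The number of the 117 past both limits fell to 2, 3 and 1 without Isotype + Vehicle liver 1, Isotype + Vehicle liver 5 and αACBP + Vehicle liver 1, and was 8 without αACBP + Vehicle liver 4. For these fits the share of all genes was not computed.

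With CORT under αACBP 4 of the 117 genes rose and 0 fell (median 0.25), where 0.212% of all genes passed: G0s2 (2.11 ± 0.33, adjusted p = 0.0101), Fabp2 (1.61 ± 0.29, adjusted p = 0.0154), Ppard (1.29 ± 0.29, adjusted p = 0.0443) and Cd36 (1.14 ± 0.24, adjusted p = 0.0291). This number was 9 without αACBP + CORT liver 5, 2 without αACBP + CORT liver 4, and 1 without αACBP + Vehicle liver 1, 3 or 5 or αACBP + CORT liver 1 or 2. Here too the share of all genes was not computed, so these numbers cannot be set against it. In αACBP + CORT against Isotype + Vehicle 0 rose and 1 fell, Acss2 (-1.71 ± 0.31, adjusted p = 0.0320), with a median of 0.15. The interaction passed for Ppard alone, at 3.57 ± 0.41 (adjusted p = 4.58e-05).

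**Figure D4:**
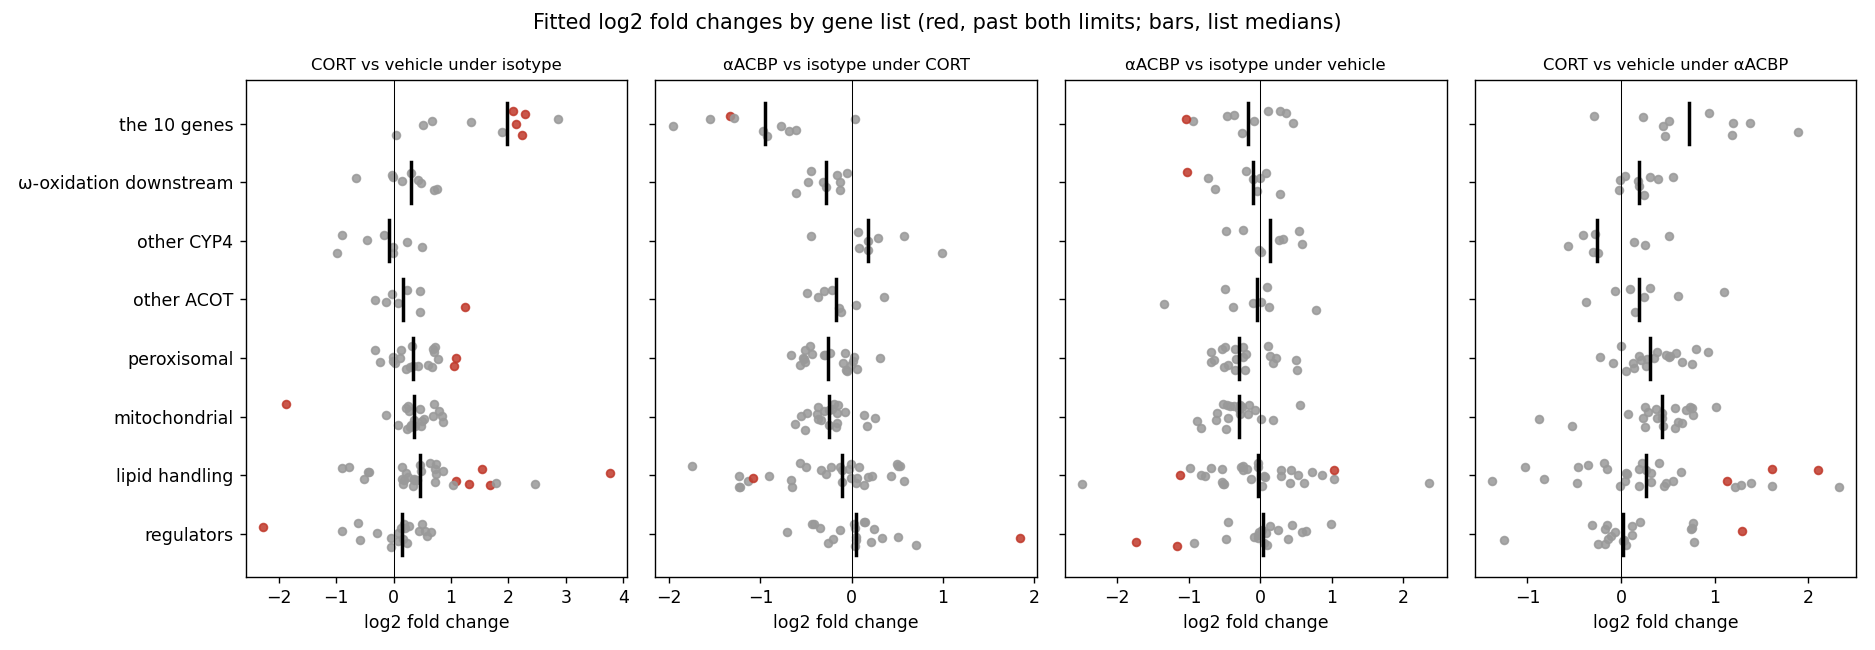
Fitted log2 fold changes (horizontal axes) of the 10 genes and of 7 lists of other pathway genes (rows) in 4 comparisons, n = 5 livers per group; each point is a gene that passed the filter, red points are past both limits and black bars are list medians. With CORT under isotype the median of the 10 genes is 1.98 and those of the other lists lie between -0.09 and 0.46.

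Markers of other cells moved with some of these comparisons, and their part in the results was not tested. Of 10 Kupffer cell and macrophage markers, 7 were lower with CORT under isotype, as were 1.43% of all genes, and 3 higher with αACBP under CORT past both limits, as were 0.504% of all genes. Their summed level was 464 to 921 CPM in Isotype + Vehicle, 155 to 452 in Isotype + CORT, 591 to 985 in αACBP + Vehicle and 591 to 819 in αACBP + CORT. In bulk liver, fewer cells of a type and less RNA per cell cannot be told apart. Of 10 hepatocyte markers none passed in any comparison. None of 9 T, NK and B cell, 8 endothelial, 6 cholangiocyte and 2 pancreas markers that passed the filter was past both limits either. All 9 T, NK and B cell markers had negative log2 fold changes with CORT under isotype (median -1.59), and the sum of this list was 18.2 to 33.9 CPM in Isotype + Vehicle, 1.22 to 12.5 in Isotype + CORT, 13.4 to 32.0 in αACBP + Vehicle and 5.68 to 19.8 in αACBP + CORT. Csf3r of 3 neutrophil markers was lower with CORT under isotype, and Lrat of 8 stellate cell and Cfd of 2 adipocyte markers were lower with αACBP without CORT. Isotype + CORT liver 5, the highest in 8 of the 10 genes, had the lowest sums of T, NK and B cell markers (1.22 CPM) and adipocyte markers (4.06 CPM) of all 20 livers.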

How the data were processed

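Liver RNA was sequenced as read pairs. The authors aligned the reads with HISAT2 2.2.1, counted pairs per gene with HTSeq-count 2.0.2 (union mode, a pair on overlapping genes counted for each), and deposited these raw counts. The methods name GRCm39 and the labels mm10; the annotation release is not given in the sources used here. Lines for pairs on no gene were left out. Counts on genes made up 36.6% to 40.4% of all counts with these lines, where a pair may enter more than once. Pairs on no annotated feature made up 42.3% to 45.2%, and the part of the strand setting in this was not tested.

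Counts were tested in R 4.3.3 with the quasi-likelihood test of edgeR 4.0.16 (TMM, filterByExpr, 1 model of 4 groups, robust), with Benjamini-Hochberg adjustment over 16071 genes. Log2 CPM for correlations used a prior count of 2. The level of 3 counts covers counting error only, and SD and SE include the spread between livers. Same-numbered livers are different mice and were not paired. The alternatives used DESeq2 1.42.0, voom of limma 3.58.1, other filters, limits and samples. The fit was checked on simulated counts. The genes, the lists and the tests were chosen with earlier results of these data known. Named were the 10 genes, Ppara, up to 3 genes of each list past both limits in either comparison of Isotype + CORT, at a mean of at least 1 CPM, and the 5 most alike genes; genes named beyond this rule are marked. Gene positions were matched by identifier for 10 of 10 genes in GENCODE M39.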

Additional observations from a re-analysis of the deposited data

Results flagged for a closer look

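In 4 of the 40 combinations of gene and group, 1 liver lay far from the other 4 by Dixon's test at the critical value of 0.71, which chance exceeds in about 1 of 20 groups. Cyp4a10 was at 803 CPM in αACBP + CORT liver 1, where the next liver was at 463 CPM. Isotype + CORT liver 5 lay apart in Cyp4a14, at 3939 CPM against 1799.7 in the next liver, and in Acot1, at 338 CPM against 63.6. Ehhadh was at 80.5 CPM in αACBP + Vehicle liver 5, below the next liver at 103 CPM. The interaction of CORT and αACBP differed from 0 for Ppard, at 3.57 on the log2 scale: its level was 44.4 ± 21.4 CPM in Isotype + Vehicle, 9.14 ± 2.89 in Isotype + CORT, 13.3 ± 2.35 in αACBP + Vehicle and 32.7 ± 11.9 in αACBP + CORT (SD, n = 5).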

How the results depend on the processing

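DESeq2's size factors changed no count of the 10 genes or of the 117 other pathway genes past both limits beyond 1.5 times. The block of replicate numbers did not either, with 4, 1, 0, 0, 1 and 0 of the 10 genes past them in CORT under isotype, αACBP under CORT, αACBP + CORT against Isotype + Vehicle, the interaction, αACBP under vehicle and CORT under αACBP. In that order, 1.77%, 0.560%, 0.0622%, 0.124%, 1.15% and 0.224% of all genes passed with this block. Same-numbered livers share only a number (correlations of their deviations between -0.10 and 0.10).

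Of the 10 genes, 7 passed with CORT under isotype at unadjusted p, 4 with αACBP under CORT, and 1 each in αACBP + CORT against Isotype + Vehicle and in the interaction, as did 5.54%, 3.24%, 1.39% and 4.92% of all genes. DESeq2's Wald test called 2 with αACBP under CORT, 1 in αACBP + CORT against Isotype + Vehicle and 3 with CORT under αACBP, where unadjusted p also gave 3 (1.31%, 0.373% and 0.697% of all genes by the Wald test). Voom with quality weights called 0, 1 and 2 in these 3 comparisons (0.355%, 0.933% and 0.964%). At least 10 counts in every liver gave 2 with αACBP under CORT (0.931% of all genes), and the fit of only the groups compared gave 1 in αACBP + CORT against Isotype + Vehicle (0.420%). Without both αACBP + Vehicle liver 5 and Isotype + CORT liver 5, chosen after seeing the data, 0 passed with αACBP under vehicle (0.964% of all genes); Ehhadh then stood at -0.98.

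Of the 117 other genes, 23 passed with CORT under isotype and 14 with αACBP under vehicle without a fold limit, as did 3.20% and 5.14% of all genes. At unadjusted p 4, 3, 8, 8 and 11 passed in the 5 comparisons other than CORT under isotype, in the order above (3.24%, 1.39%, 4.92%, 3.34% and 2.46% of all genes). Voom called 1, 2, 2 and 9 with αACBP under CORT, in αACBP + CORT against Isotype + Vehicle, in the interaction and with CORT under αACBP (0.355%, 0.933%, 0.305% and 0.964%). The Wald test and the filter at 10 counts each called 2 and 3 in the middle 2 of these (0.373% and 1.17%, and 0.133% and 0.532%, of all genes), no filter 0 and 2 (0.0491% and 0.217%). The fit of only the groups compared called 1 and 2 in the first 2 (0.185% and 0.420%), and leaving out both livers 1 in the first (0.653%).

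With each liver left out in turn, the 10 genes gave 4 to 5 calls with CORT under isotype, 0 to 2 with αACBP under CORT, 0 to 1 with αACBP under vehicle and 0 to 3 with CORT under αACBP, and the 117 others 6 to 10, 1 to 3, 1 to 8 and 1 to 9, with 0 to 2 in αACBP + CORT against Isotype + Vehicle and 1 to 2 in the interaction. Without Isotype + CORT liver 5, 1.74% of all genes passed with CORT under isotype, 0.558% with αACBP under CORT and 0.437% in the interaction. The share of all genes was not computed for the other livers left out, so those counts have nothing beside them. Signs turned for genes that passed no limit. With αACBP under vehicle, Acot2 ran from -0.25 to 0.13, Acot3 from -0.13 to 0.69, Cyp4a31 from -0.046 to 0.45, Cyp4a32 from -0.030 to 0.64 and Vnn1 from -0.0064 to 0.22. Cyp4a32 ran from -0.48 to 0.11 with CORT under αACBP, from -0.33 to 0.31 with CORT under isotype and from -0.20 to 0.40 with αACBP under CORT. In αACBP + CORT against Isotype + Vehicle, Cyp4a32 ran from -0.16 to 0.36, Acot4 from -0.16 to 0.064 and Ehhadh from -0.23 to 0.015. In the interaction Cyp4a32 ran from -0.60 to 0.073 and Cyp4a14 from -0.62 to 0.13. Acot3 with αACBP under vehicle was -0.11 by voom and -0.13 without both livers. Summed with their relatives, Cyp4a31 and Cyp4a32 gave -0.29 and Acot1, Acot2 and Acot4 0.084 there, and Cyp4a32 1.06 with CORT under αACBP. Cyp4a10 held most of the CYP4A sum (mean of 282 CPM in Isotype + Vehicle), and Acot3 and Acot4 most of the ACOT sum (49.1 and 47.3 CPM). The summed values therefore largely follow these genes. The cause of the other changes was not tested. Counting error is largest, relative to the level, for genes at low levels, and Cyp4a31 and Acot2 were the lowest of the 10 in Isotype + Vehicle (means of 4.72 and 5.90 CPM). Signs also turned for genes at higher levels, such as Cyp4a32 (21.2 CPM) and Acot3.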
